A study of Mus musculus with 4 samples.

Results

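The immunoglobulin kappa variable (Igkv) segments are the germline exons from which B cells assemble the variable part of the kappa light chain. All genes whose GENCODE vM21 symbol starts with Igkv were taken, which gave 112 of the 22520 genes in the deposited tables and 112 of the 160 Igkv segments in that annotation, 100 of them annotated as genes and 12 as pseudogenes. The RNA came from marrow of C57BL/6 mice after lineage depletion, the magnetic removal of cells that carry mature lineage markers. The groups were 2 wild type (WT) mice and 2 mice with the Cyba -/- genotype (Cyba-KO), which lack p22phox, the membrane subunit that the phagocyte NADPH oxidase needs. The labels give no age, sex, treatment or construction of the allele, and each mouse gave 1 library, spread over 4 sequencing lanes that were summed. The libraries held 23715152 and 22416111 reads in WT 1 and WT 2, and 23143271 and 22885617 in Cyba-KO 1 and Cyba-KO 2. Cyba itself had 1347 and 875 reads in the WT libraries and 28 and 32 in the Cyba-KO libraries, as their labels say. The 9 listed markers of stem and progenitor cells, which lineage depletion leaves, summed to between 698 and 960 CPM (counts scaled by library size), but markers of plasma cells, T cells and neutrophils were present in every library too.

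In a developing B cell the RAG recombinase joins one Igkv segment to one of the Igkj joining segments, and splicing then links the joined exon to Igkc, the constant exon of the kappa chain. Segments that lie in the same orientation as Igkj are joined by deletion of the DNA between them, and those in the opposite orientation by inversion, so that further segments stay available for a later rearrangement. The daughters of one B cell keep its rearrangement, and a plasma cell, the antibody-secreting end stage, makes far more light chain RNA than other B cells. In bulk RNA the share of reads from a segment therefore weighs cells by how much light chain RNA each holds. Fewer cells of a type and less RNA per cell could not be told apart here.

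Each library had another leading segment, and the germline V exons of these 4 are given to show how far apart the leading sequences are, together with those of Igkv9-120 and Igkv3-7, whose values are compared between the genotypes further on. Of the 2 exons longer than 300 bases, those of Igkv1-110 and Igkv3-7, the last 300 are given, with the coordinates of those bases. The bases are the coding strand from the GENCODE vM21 transcripts of the GRCm38 build, 5′ to 3′, and the capitals run from the codon of the conserved second cysteine to the end of the exon, the germline start of the third complementarity-determining region (CDR3), which contacts antigen. The V exon of Igkv5-39, the leading segment of WT 1, lies at chr6:69900424-69900721 on the minus strand. That of Igkv15-103, which led in WT 2, lies at chr6:68437628-68437925 on the plus strand. For Igkv10-96, which led in Cyba-KO 1, the position is chr6:68631963-68632260 on the minus strand, and for Igkv1-110, which led in Cyba-KO 2, it is chr6:68270968-68271267 on the plus strand. The exon of Igkv9-120 is at chr6:68050159-68050456 on the plus strand and that of Igkv3-7 at chr6:70607737-70608036 on the plus strand.
Igkv5-39: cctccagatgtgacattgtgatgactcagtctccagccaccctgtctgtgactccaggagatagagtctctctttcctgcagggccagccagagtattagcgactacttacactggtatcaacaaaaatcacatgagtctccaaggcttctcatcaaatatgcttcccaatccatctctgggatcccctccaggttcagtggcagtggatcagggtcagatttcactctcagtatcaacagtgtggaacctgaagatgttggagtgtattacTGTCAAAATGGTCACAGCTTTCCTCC
Igkv15-103: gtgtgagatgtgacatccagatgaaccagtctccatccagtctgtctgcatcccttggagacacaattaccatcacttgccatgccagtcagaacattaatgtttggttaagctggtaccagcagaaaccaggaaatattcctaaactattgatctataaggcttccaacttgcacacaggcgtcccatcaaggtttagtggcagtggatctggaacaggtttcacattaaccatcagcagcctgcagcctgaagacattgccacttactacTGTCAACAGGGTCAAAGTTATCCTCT
Igkv10-96: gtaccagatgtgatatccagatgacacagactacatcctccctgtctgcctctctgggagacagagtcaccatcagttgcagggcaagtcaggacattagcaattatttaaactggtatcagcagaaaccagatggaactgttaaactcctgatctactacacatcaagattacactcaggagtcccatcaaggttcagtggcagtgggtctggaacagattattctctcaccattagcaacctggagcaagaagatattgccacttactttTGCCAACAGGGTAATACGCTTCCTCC
Igkv1-110: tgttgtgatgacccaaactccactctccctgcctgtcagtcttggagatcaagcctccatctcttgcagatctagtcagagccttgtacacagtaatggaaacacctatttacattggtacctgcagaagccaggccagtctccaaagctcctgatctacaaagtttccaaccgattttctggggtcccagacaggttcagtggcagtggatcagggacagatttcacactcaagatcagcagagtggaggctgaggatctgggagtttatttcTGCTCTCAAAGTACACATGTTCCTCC
Igkv9-120: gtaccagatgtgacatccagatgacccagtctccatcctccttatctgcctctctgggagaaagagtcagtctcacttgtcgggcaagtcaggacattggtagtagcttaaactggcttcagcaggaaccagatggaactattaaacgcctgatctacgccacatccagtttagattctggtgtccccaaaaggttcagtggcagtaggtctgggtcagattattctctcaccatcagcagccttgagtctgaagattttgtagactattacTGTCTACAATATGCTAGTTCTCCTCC
Igkv3-7: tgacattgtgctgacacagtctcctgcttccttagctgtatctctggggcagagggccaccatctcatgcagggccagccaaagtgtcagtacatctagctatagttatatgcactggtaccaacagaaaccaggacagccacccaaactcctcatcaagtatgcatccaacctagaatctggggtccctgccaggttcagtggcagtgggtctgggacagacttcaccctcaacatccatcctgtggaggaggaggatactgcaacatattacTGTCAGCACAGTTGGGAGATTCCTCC

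The 4 leading exons shared between 64.1% and 74.2% of their aligned bases with each other, counted over the shorter exon. Some other segments are near copies. Among the 100 annotated genes, 7 pairs formed by 14 segments had exons that were at least 97% identical, and the closest, Igkv5-43 and Igkv5-45, differed at 3 of 298 bases. The authors' Salmon estimates divide reads between such copies, so the division within these pairs is uncertain. Summed over that pair there were 1488, 406, 5120 and 2437 reads in WT 1, WT 2, Cyba-KO 1 and Cyba-KO 2, of which Igkv5-43 was credited with 94.7%, 86%, 98% and 93.8%. Segments just under the 97% limit can share reads too. Igkv1-110, Igkv3-7, Igkv4-61 and Igkv4-79, whose levels are compared below, were between 96.1% and 96.8% identical to their nearest segments.

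The total of all Igkv reads differed more within the genotypes than between them. It came to 101266 reads in WT 1, 18870 in WT 2, 129799 in Cyba-KO 1 and 49887 in Cyba-KO 2, or 4263, 841, 5770 and 2131 CPM. One WT library was thus the lowest and the other above one of the Cyba-KO libraries. The mean was 2552 ± 2420 CPM (SD, n = 2) in WT and 3950 ± 2574 CPM (SD, n = 2) in Cyba-KO, a log2 ratio of 0.63 (exact permutation test, two-sided, p = 0.667, where the smallest p possible is 0.333). Without WT 2 the log2 ratio was -0.11 and without Cyba-KO 1 it was -0.26, so that its direction rested on either library. The 7 segments with a value that could not be settled in at least 1 library made up between 1.11% and 4.11% of the Igkv reads of a library, and the values unsettled in the library itself at most 1.36%.

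The constant exon moved with the variable ones. Igkc had 171578 reads in WT 1, 28482 in WT 2, 222334 in Cyba-KO 1 and 81284 in Cyba-KO 2, which leaves the same order of libraries. Igkv reads per Igkc read were 0.59, 0.663, 0.584 and 0.614, a range much narrower than that of the totals. Their genotype means were 0.626 ± 0.0512 in WT and 0.599 ± 0.0212 in Cyba-KO (SD, n = 2 each; exact permutation test, two-sided, p = 0.667).

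The libraries also stood in that order for the summed RNA of markers of antibody-secreting cells, though not for every marker. Jchain, the chain that links IgA and IgM into multimers, had 1738, 379, 3105 and 1025 CPM in WT 1, WT 2, Cyba-KO 1 and Cyba-KO 2. The summed level of the 14 listed plasma cell markers was 2803, 944, 4525 and 1880 CPM, with Jchain as its largest part. This again puts WT 2 lowest and Cyba-KO 1 highest. All 14 had a higher mean in Cyba-KO with a median log2 fold change of 0.54, against -0.01 over the 13903 genes tested, and none passed the edgeR quasi-likelihood test or DESeq2, with 0 at an unadjusted p under 0.05. Xbp1, the transcription factor of the secretory programme, stood at 247, 119, 354 and 206 CPM. Prdm1, also on the list, was instead highest in WT 1, with 13.8, 2.41, 11.9 and 6.54 CPM. No plasma cell marker was at 0 in any library, and the part of these cells in the Igkv values was not tested.

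Markers of B cells before the plasma stage were mixed in which library was highest. Of 13 tested pro-B and pre-B markers 12 had a higher mean in Cyba-KO, with a median log2 fold change of 0.95. The mature B list had 12 of 13 and a median of 0.70, where 49% of all genes were higher. Both Cyba-KO libraries lay above both WT libraries for 5 and 4 markers, as for 17.6% of all tested genes. Neither edgeR's quasi-likelihood test nor DESeq2 called any. Of the 13 tested pro-B and pre-B markers 5 were highest in Cyba-KO 1, as the Igkv total was, and 8 in Cyba-KO 2, and the same counts held for the 13 mature B markers. Rag1, a subunit of the recombinase that joins the segments, had 18, 36, 19 and 133 reads in WT 1, WT 2, Cyba-KO 1 and Cyba-KO 2. For Pax5, the factor that holds B cell identity and is silenced in plasma cells, the reads were 32, 51, 16 and 210. Cyba-KO 2 was the highest library for both. Cd74, the invariant chain of antigen presentation, had 160, 45, 232 and 130 CPM and Cd79b, a signalling chain of the B cell receptor, 21, 14.3, 28 and 24.8 CPM, both lowest in WT 2 and highest in Cyba-KO 1. The summed level of the 14 measured pro-B and pre-B markers was 99.5, 81.5, 131 and 120 CPM, and that of the 13 mature B markers 325, 157, 436 and 325 CPM, again lowest in WT 2 and highest in Cyba-KO 1. The neutrophil list summed to 401, 1183, 1003 and 4275 CPM and the T cell list to 33.6, 13.5, 50 and 24.7 CPM. The 6 monocyte markers summed to 1906, 1244, 2821 and 2342 CPM, and for each of the 6 both Cyba-KO libraries lay above both WT libraries, as in 17.6% of all tested genes. Of the 6, 4 had an unadjusted p under 0.05 and were higher, as 2.81% of all genes did, and DESeq2 called 1, Fn1 (adjusted p = 0.0157), where it called 0.256% of all genes higher. The 6 erythroid markers summed to 643, 1380, 322 and 792 CPM, the reverse order of the Igkv total, and all 6 had a lower mean in Cyba-KO (median log2 fold change -0.85, none called). The part of these cells in the results was not tested either.

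**Figure D1:**
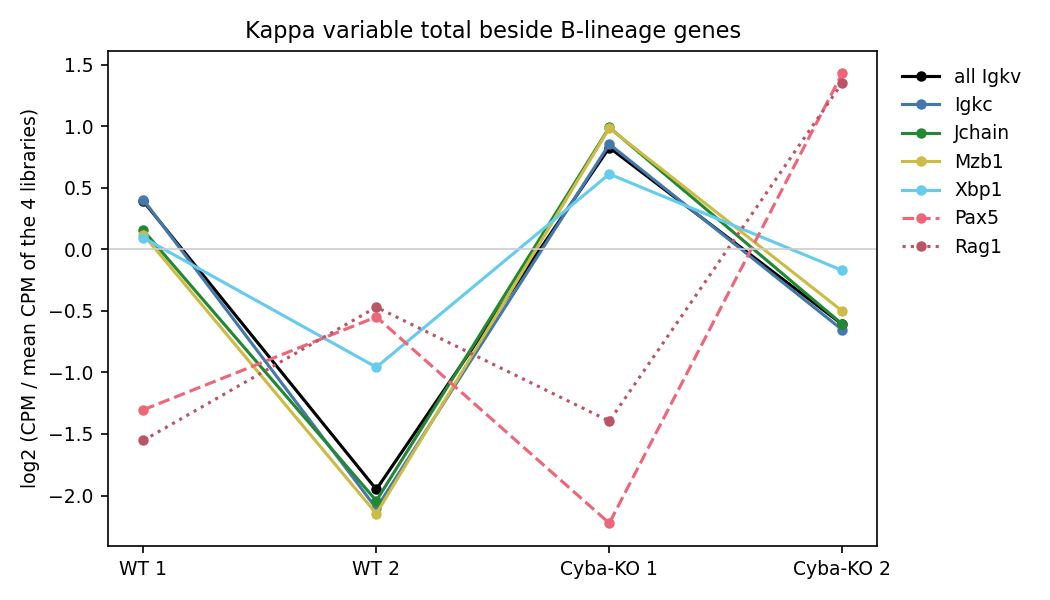
The vertical axis is the log2 ratio of the CPM in each library to the mean CPM of the 4 libraries, for the sum of all Igkv segments and for 6 B-lineage genes. The Igkv total, Igkc, Jchain, Mzb1 and Xbp1 are lowest in WT 2 and highest in Cyba-KO 1, whereas Pax5 and Rag1 are highest in Cyba-KO 2.

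Of the 32 genes listed for recombination and control of the kappa locus, 17 had a higher and 15 a lower mean in Cyba-KO, with a median log2 fold change of 0.09. None passed with edgeR or DESeq2, and 0 had an unadjusted p under 0.05. Rag2, the partner of Rag1, had 69, 45, 74 and 49 reads, and Dntt, the polymerase that adds bases at the joints, 42.7, 41.6, 49.3 and 26.7 CPM. Of the 11 tested genes of the kappa and lambda constant, joining and lambda variable list, all 11 had a higher mean in Cyba-KO, where 49% of all genes did. None passed with edgeR, 3 were higher at an unadjusted p under 0.05, where 2.81% of all genes were, and DESeq2 called 1, Iglc3, where it called 0.256% of all genes higher. Iglc3, a lambda constant exon, had 20.2 and 12.5 CPM in WT and 66.3 and 66.2 CPM in Cyba-KO, with no overlap (edgeR quasi-likelihood log2 fold change 2.02, SE 0.263, adjusted p = 0.843). Iglc1, another lambda constant exon, had 196, 50.3, 944 and 297 CPM, and Iglc2 60, 19.2, 88.5 and 132 CPM, both without overlap. Lambda is the light chain that a B cell rearranges when its kappa loci give no usable chain.

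Few reads were credited to the short Igkj segments, 288, 53, 441 and 185 in all, so their shares are coarse. Igkj2 took the most in both WT libraries and in Cyba-KO 2, with 37.5%, 41.5% and 34.6%. In Cyba-KO 1 it took 27.9% and Igkj5, the last functional segment before Igkc, 37.9%. Igkj5 took 20.8%, 22.6% and 26.5% in the other 3 libraries. Igkj3, which lacks a functional splice site, took between 1.81% and 7.55%.

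Within the Igkv reads, WT 1 was dominated by one segment. Igkv5-39 made up 24.8% of its Igkv reads (95% Wilson interval 24.5 to 25%), but 3.42% in WT 2, 3.28% in Cyba-KO 1 and 4.78% in Cyba-KO 2. In reads this was 25064 against 645, 4255 and 2385, and the 4 lanes of WT 1 gave between 6000 and 6549 each. Counted per length, Igkv5-39 took 32.4% of the Igkv TPM of WT 1. The Wilson intervals here cover counting error only, since reads are not independent molecules.

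No other library had such a segment. The leading share was 9.96% for Igkv15-103 in WT 2, 9.12% for Igkv10-96 in Cyba-KO 1 and 10.03% for Igkv1-110 in Cyba-KO 2. By TPM the same segments led, with 9.06%, 9.23% and 7.53% of the Igkv sum. The leading share had a mean of 17.4 ± 10.5% in WT and 9.57 ± 0.646% in Cyba-KO (SD, n = 2 each; exact permutation test, two-sided, p = 0.667). Without Igkv5-39 the difference turned from -7.78 to 0.536 percentage points.

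**Figure D2:**
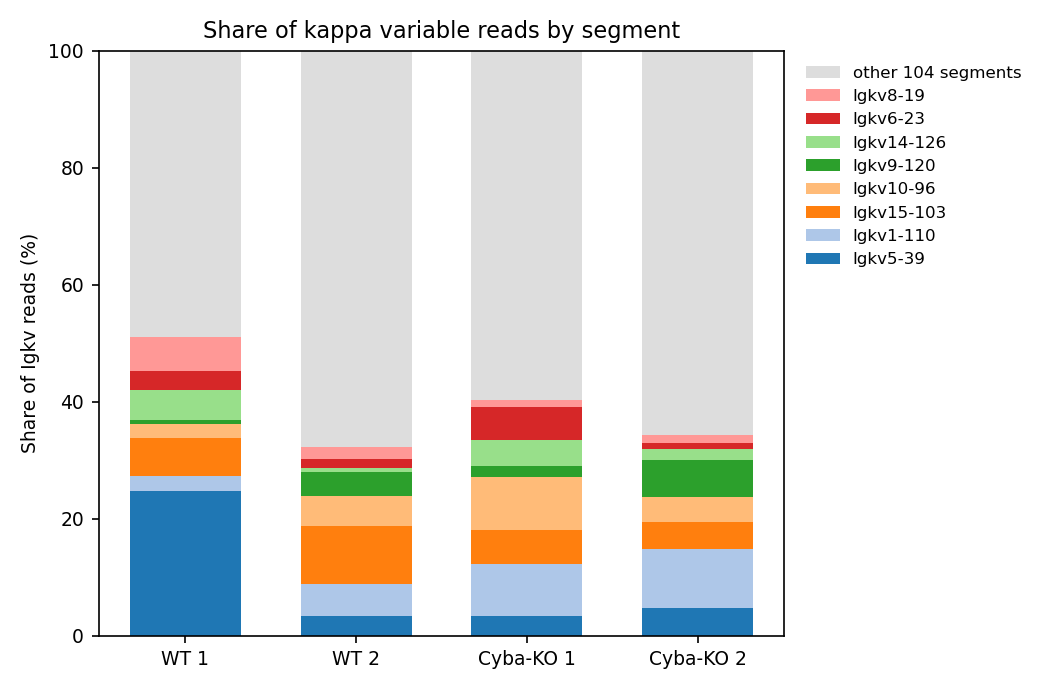
Each bar is 1 library and its height the share of Igkv reads in percent. The 8 coloured blocks are segments named in the text, and the grey block is the sum of the other 104. Igkv5-39, at the foot of each bar, takes 24.8% in WT 1 and between 3.28% and 4.78% in the other 3 libraries.

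Diversity was measured as the effective number of segments, the number of equally used segments that would give the same Shannon entropy. It was 27.0 in WT 1, 39.9 in WT 2, 38.9 in Cyba-KO 1 and 40.3 in Cyba-KO 2. WT 1 thus stood apart from 3 libraries that lay close together. The genotype means were 33.5 ± 9.15 and 39.6 ± 0.966 (SD, n = 2 each; exact permutation test, two-sided, p = 0.667). The inverse Simpson index, which weighs the leading segments more, was 12, 26.4, 26 and 25.6 (exact permutation p = 1). With Igkv5-39 left out, the effective numbers were 37.9, 39, 37.9 and 39.6 and the inverse Simpson indices 26, 25.4, 25 and 24.7, so WT 1 no longer stood apart.

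The number of segments behind most of the reads was alike in 3 libraries. 50% of the Igkv reads came from 6 segments in WT 1, 10 in WT 2, 10 in Cyba-KO 1 and 9 in Cyba-KO 2. The 10 leading segments held 62.4%, 51.2%, 52.3% and 54% (exact permutation test, two-sided, p = 1). At least 1 read was credited to 105, 92, 105 and 101 of the 112 segments, where WT 2, the library with the fewest Igkv reads, had the fewest. In WT 2 a count of 0 allows a share of up to 0.0159%, and in WT 1 of up to 0.00296%. The 12 pseudogenes together had 34, 1, 100 and 8 reads.

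**Figure D3:**
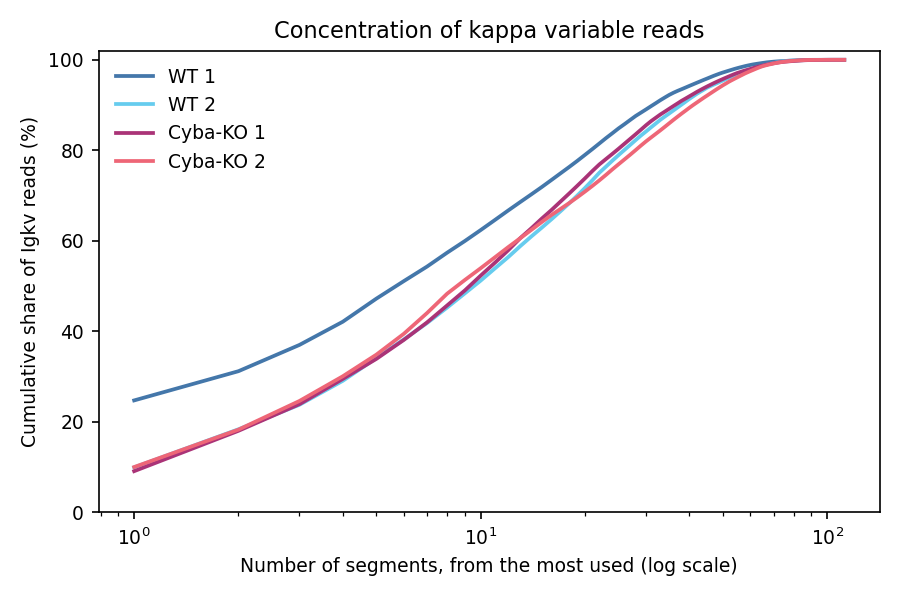
The cumulative share of Igkv reads (percent) is drawn against the number of segments, taken from the most to the least used in each library, on a log axis. The line of WT 1 starts at 24.8% and stays highest until nearly all reads are counted, while the other 3 libraries start between 9.12% and 10.03% and run close together.

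Segments in steady use were few. Only 11 of the 112 reached 1% of Igkv reads in every library, 46 did so in at least 1 library, and 11 did so in exactly 1. Igkv15-103, the only member of its family in the tables, was among the 11 with 6.46%, 9.96%, 5.89% and 4.6% in WT 1, WT 2, Cyba-KO 1 and Cyba-KO 2. It ranked 2, 1, 3 and 6, and it was the only segment named here that stayed among the 6 most used in every library. Its level was 275, 83.8, 340 and 98.1 CPM, which overlapped between the genotypes, while its share was lower in both Cyba-KO libraries than in both WT libraries. The log2 fold change of the level was 0.29 (SE 0.82, edgeR quasi-likelihood adjusted p = 0.931).

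Igkv10-96 took 2.42%, 5.04%, 9.12% and 4.28%, and its level of 103, 42.4, 526 and 91.2 CPM was highest in Cyba-KO 1. Igkv14-126 took 5.12%, 0.673%, 4.43% and 1.97%, high in WT 1 and Cyba-KO 1. Igkv6-23 had the same pattern with 3.21%, 1.68%, 5.57% and 1.02%. Igkv12-44 took 3.87%, 1.72%, 2.19% and 3.03%. None of these 4 shares separated the genotypes. Igkv8-19 took 5.81% and 1.93% in WT against 1.14% and 1.22% in Cyba-KO, which did not overlap, but its level of 248, 16.3, 65.9 and 26.1 CPM did, and reads from its near copy Igkv8-28 can be credited to it.

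Some segments were prominent in 1 library and scarcer in the rest. Taking for each library the segment of at least 1% whose share was highest against the median of the other 3, the rule named Igkv14-130 in WT 1, with 1.24% against 0.0424%, 0.0347% and 0.593% in WT 2, Cyba-KO 1 and Cyba-KO 2. In reads this was 1258, 8, 45 and 296. In WT 2 it named Igkv2-109, with 3.14% against 0.162%, 0.195% and 0.844% in WT 1, Cyba-KO 1 and Cyba-KO 2. In Cyba-KO 1 it named Igkv3-12, with 1.78% against 0.0461% and 0.244% in WT and 0.492% in Cyba-KO 2. In Cyba-KO 2 it named Igkv1-88, with 2.22% against 0.368%, 0.345% and 0.289%. These are 29.3, 16.1, 7.28 and 6.44 times the median of the other libraries, and since the rule took the highest ratios they are a description.

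The shares that a pair of libraries had in common, the sum over segments of the smaller of the 2 shares, were lowest for the pairs with WT 1. WT 1 had 50.1% in common with WT 2, 53.1% with Cyba-KO 1 and 51% with Cyba-KO 2. WT 2 had 63.8% in common with Cyba-KO 1 and 70.2% with Cyba-KO 2, and both Cyba-KO libraries had 69% in common. With Igkv5-39 included, the pair of WT libraries thus shared less than any pair across the genotypes. Without it WT 1 shared 56.7% with WT 2, 59% with Cyba-KO 1 and 54.7% with Cyba-KO 2, so that the WT pair was no longer the lowest, while the other 3 pairs shared between 62.6% and 69.6%.

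By family, Igkv1 had the highest mean share, with 6.04% and 16.3% in WT and 14.5% and 26.2% in Cyba-KO. Igkv5 followed through Igkv5-39, with 26.9%, 8%, 9.48% and 12.1%. Igkv4, the largest family with 31 members, took 9.79%, 13.5%, 13.7% and 10%, spread over many segments. Of the 14 families with a mean share of at least 1%, 10 overlapped between the genotypes. Only Igkv3 was higher in both Cyba-KO libraries, with 3.47% and 2.97% against 1.48% and 2.08%. Among these 14, Igkv8 (5.19% and 6.27% against 14.2% and 7.55%), Igkv15 and Igkv2 (1.22% and 1.6% against 1.94% and 4.6%) were lower in both. Igkv8 holds 3 segments whose values were not settled.

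The segments are spread over the Igk locus of chromosome 6, from 67555497 to 70704177 on GRCm38, with Igkj1 starting at 70722562 and Igkc from 70726435 to 70726966. Of the 160 annotated segments the 80 nearer to Igkj made the proximal side, which held 61 of the 112 members. This side gave 66% of Igkv reads in WT 1, 45.4% in WT 2, 46.1% in Cyba-KO 1 and 40.3% in Cyba-KO 2. The means were 55.7 ± 14.6% and 43.2 ± 4.11% (SD, n = 2 each; exact permutation test, two-sided, p = 0.667). Igkv5-39 lies 822 kb from Igkj1 on that side, and without it the shares were 54.8%, 43.4%, 44.3% and 37.3%. WT 1 remained the highest and Cyba-KO 2 the lowest.

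Segments in the orientation opposite to Igkc, 68 of the 112, gave 72.8%, 51.8%, 61.1% and 50.4% of the reads (exact permutation test, two-sided, p = 0.667). The mean was 62.3 ± 14.9% in WT and 55.8 ± 7.58% in Cyba-KO (SD, n = 2 each), and without WT 1 the difference changed from -6.53 to 3.99 percentage points. Of the 61 proximal members 46 lie in that orientation, and of the 51 distal members 22, so the shares by position and by orientation are not separate measures. Of the 10 segments with the highest mean share, 6 lie on the distal side, among them Igkv14-126 at 2826 kb from Igkj1 and Igkv9-120 at 2672 kb.

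**Figure D4:**
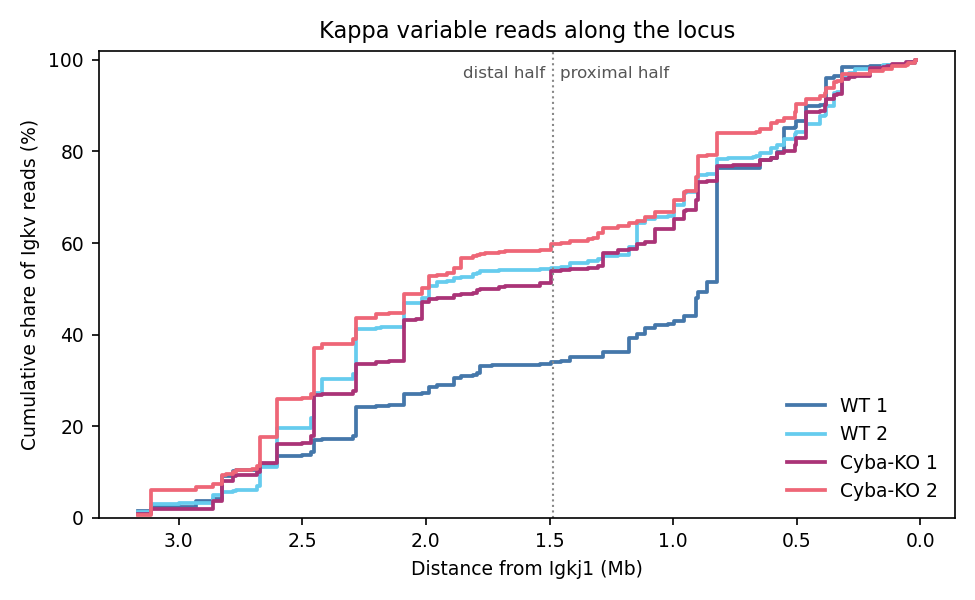
Cumulative share of Igkv reads (percent) along the locus, from the segment farthest from Igkj1 to the nearest, with the distance from Igkj1 in megabases and a dotted line between the distal and the proximal side. The largest step of WT 1 is that of Igkv5-39 on the proximal side, and at the dotted line WT 1 has the lowest and Cyba-KO 2 the highest share.

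WT was then compared with Cyba-KO segment by segment, in a fit over all 13903 genes that passed the filter on low counts. Of the 112 segments 80 were tested, 25 had too few reads and 7 had a value that could not be settled. None of the 80 passed at an adjusted p of 0.05 by edgeR's quasi-likelihood test, as none of the 13903 genes did (0%). At an unadjusted p under 0.05 there were 18 segments, all 18 higher in Cyba-KO, or 22.5% of those tested, where 2.81% of all genes were higher and 0.453% lower at that threshold. DESeq2 called 9 of the 87 segments to which it gave an adjusted p, all higher in Cyba-KO, where it called 0.256% of all genes higher and 0.027% lower, and edgeR's likelihood ratio test called 8, where it called 0.288% of all genes. The p-values measure the spread between 4 libraries, which the series' design text gives as separate mice.

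Most segments had a higher mean level in Cyba-KO, 60 of the 80 tested, with a median log2 fold change of 1.00 against -0.01 over all genes. In 27 of the 80, or 33.8%, both Cyba-KO libraries lay above both WT libraries, a pattern that 17.6% of all tested genes had, and in 0 both lay below, a pattern of 16.1% of all tested genes. Segments of one library share its cells, so they are not separate replicates. The median followed single libraries: without WT 1 it was 2.59, and without Cyba-KO 1 it was -0.03. Taken relative to the Igkv total of each library, 42 segments were higher and 38 lower with a median of 0.03, and none passed. On that scale 14 of the 80 segments were higher and 8 lower at an unadjusted p under 0.05. The share of all genes at that threshold was not counted in that fit, so these counts are a description.

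Igkv3-7 had the largest fold among the segments the rule named. It had 22 and 5 reads in WT and 615 and 354 in Cyba-KO, or 0.918 and 0.223 CPM against 27.4 and 15.1 CPM. Both Cyba-KO libraries were above both WT libraries by over an order of magnitude (edgeR quasi-likelihood log2 fold change 5.18, SE 0.72, adjusted p = 0.843; DESeq2 adjusted p = 1.19e-13). Its share of Igkv reads was 0.0215% and 0.0265% in WT and 0.474% and 0.709% in Cyba-KO, which did not overlap, and relative to the Igkv total it did not pass either (edgeR quasi-likelihood log2 fold change 4.67, unadjusted p = 9.4e-05, adjusted p = 0.656). Even in Cyba-KO it ranked only at 42 and 37 among the 112. Igkv3-12, its nearest segment with 96.8% identity, was also higher in both Cyba-KO libraries than in both WT libraries, by level and by share. The edgeR quasi-likelihood log2 fold change of Igkv3-12 was 4.80, and from 2.39 to 5.66 when a library was left out. Neither that test nor DESeq2 called it, but the likelihood ratio test did. Salmon can divide reads between both segments, so their levels are not separate measures.

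Igkv9-120 had the smallest p of the segments by edgeR's quasi-likelihood test and was a major one. It had 721 and 775 reads in WT and 2447 and 3160 in Cyba-KO, or 32.4 ± 2.96 CPM and 122 ± 18.5 CPM (SD, n = 2 each). The log2 fold change was 1.91 (SE 0.17, edgeR quasi-likelihood adjusted p = 0.843, DESeq2 adjusted p = 2.95e-12). Its share, however, was 0.712% and 4.11% in WT and 1.89% and 6.33% in Cyba-KO, which overlapped (relative to the Igkv total, edgeR log2 fold change 0.79, adjusted p = 0.853). Igkv4-61 had 71 and 61 reads in WT and 388 and 640 in Cyba-KO (log2 fold change 2.96, SE 0.31, DESeq2 adjusted p = 3.99e-12). Its shares of 0.0705% and 0.323% in WT and 0.299% and 1.28% in Cyba-KO overlapped too.

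Igkv4-79 rose by DESeq2 from 11 reads in each WT library to 468 and 116 in Cyba-KO (log2 fold change 4.74, SE 0.87 by edgeR; DESeq2 adjusted p = 2.67e-07), and its share of 0.0112% and 0.0587% in WT and 0.361% and 0.232% in Cyba-KO did not overlap. Igkv1-110, the leading segment of Cyba-KO 2, had 2611 and 1022 reads in WT and 11575 and 5004 in Cyba-KO. Its level of 110, 45.5, 515 and 214 CPM and its share of 2.58%, 5.42%, 8.92% and 10.03% were both higher in the Cyba-KO libraries without overlap (edgeR log2 fold change 2.23, SE 0.63; DESeq2 adjusted p = 0.0128). Igkv5-43 was credited with 59.3, 15.6, 223 and 97.6 CPM and with 1.39%, 1.85%, 3.87% and 4.58% of the reads, again without overlap, but neither edgeR's quasi-likelihood test nor DESeq2 called it (DESeq2 adjusted p = 0.152). With its near copy Igkv5-45 added, the 4 sums given above keep both Cyba-KO libraries above both WT libraries.

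Over the alternatives run, the adjusted p of Igkv3-7 ranged from 1.19e-13 to 1, that of Igkv9-120 from 2.95e-12 to 1, that of Igkv4-61 from 3.99e-12 to 1, that of Igkv4-79 from 2.67e-07 to 1 and that of Igkv1-110 from 0.000935 to 1. These levels therefore passed or did not pass depending on the test and on whether the replicate number was used as a block.

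No tested segment was lower in both Cyba-KO libraries than in both WT libraries. Among all 112 segments, with those not tested, 32 were higher and 3 lower in both Cyba-KO libraries by CPM. Igkv5-39 had the most negative log2 fold change of the named segments, -1.90 (SE 1.55, edgeR quasi-likelihood adjusted p = 0.843), from a WT mean of 542 ± 726 CPM to 146 ± 61.8 CPM in Cyba-KO (SD, n = 2 each). This rested on WT 1, without which it was 2.34. Igkv8-19 at -1.52 turned likewise to 1.5 without WT 1, and Igkv14-130 from -1.86 to 4.35. Over shares rather than levels, 23 of the 112 segments were higher and 15 lower in both Cyba-KO libraries. By level, 17.6% of all tested genes were higher and 16.1% lower in both. The 112 include pseudogenes and segments of few or unsettled reads, so these counts are a description.

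**Figure D5:**
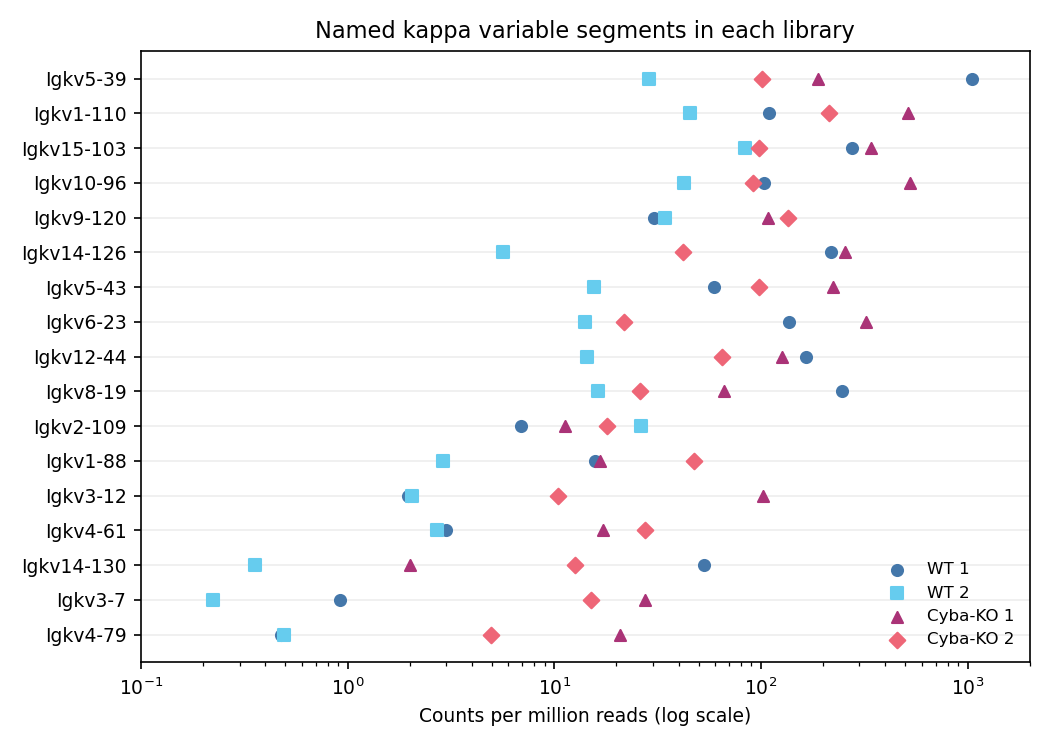
CPM, on a log axis, of the named segments, with 1 symbol for each library. Igkv3-7, Igkv4-79, Igkv3-12, Igkv4-61 and Igkv9-120 have both Cyba-KO symbols to the right of both WT symbols, and Igkv5-39 reaches 1055 CPM in WT 1 against 28.7 to 189 CPM elsewhere.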

How the data were processed

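Each library was deposited by the authors as a table of estimated counts (expected counts) and a table of TPM values, with 4 lanes per library per the file headers. Salmon, DESeq2 and the build GRCm38 are named in the submitters' processing notes; versions and strand setting are not given in the sources used here. The TruSeq v2 preparation started from 2 micrograms of RNA, per the labels' protocols. In the deposited tables values with 3 or more decimals had lost the decimal point: 25.1% of the count values and 53.1% of the TPM values had several readings, and for the segments 48.3% of the count values.

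Readings were weighed jointly. The lanes of a library share a common rate, and TPM is tied to the count through gene length. Libraries are tied to each other, more loosely for the segments (scale 1 in natural log) than for other genes (scale 0.2). Reads that Salmon divides among segments of shared sequence should sum to whole reads in a lane. The readings chosen did so in 159 of 167 sums. Whole sums were favoured in the choice, so this count is no separate check of it. A gene was kept if its expected error was at most 5% or 1 read, which kept 22134 genes. Of the segments 105 were settled; the 7 others entered totals at their most likely reading. On simulated data 101 of 112 segments were settled and 0 wrongly. Those data were drawn to obey the assumptions of the repair, with whole sums in every lane. They cannot show how many real values were settled wrongly where the assumptions fail. Repaired TPM summed to between 993577 and 997944 per library.

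Lanes were summed and rounded. CPM used TMM factors, and edgeR 4.0.16 quasi-likelihood tests ran over all genes passing filterByExpr, with Benjamini-Hochberg adjustment; DESeq2 1.42.0, a likelihood ratio test, other scalings, other repairs and left-out libraries were alternatives. Totals, shares and diversity were compared by exact permutation in scipy 1.17.1. Sequence identity came from Biopython 1.88 alignments of GENCODE vM21 exons. Named segments were the 10 with the highest mean share, the 3 leading in each library, up to 5 per direction with the smallest p and no overlap, and the most uneven of each library; 1 segment that this rule took is not reported here. The members, lists and rules were chosen with earlier results of these data known. A planned search of promoters for motifs was not run, since no Igkv promoter was at hand.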

Additional observations from a re-analysis of the deposited data

How the results depend on the processing

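No segment was called by edgeR's quasi-likelihood test under another scaling, without the filter, relative to the Igkv total or under the other repairs; at an unadjusted p under 0.05 there were 18, DESeq2 called 9 and the likelihood ratio test 8. With the replicate number as a block 24 of 80 segments were called, where that fit called 1012 of 13903 genes (7.28%). The labels do not say what the number marks. Deviations of same-numbered libraries correlated with r = 0.564 over 13903 genes and -0.0963 over the 80 segments. Leaving out 1 library gave between 0 and 2 calls, the latter without Cyba-KO 2, where 3 of all genes were called, in fits where the lone library is assumed to vary like the pair.

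Values without 1 library ranged from -0.26 to 2.23 for the log2 ratio of total Igkv CPM, from -15.2 to -0.383 percentage points for the leading share, which was 0.536 without Igkv5-39, from -0.343 to 12.6 for the effective number, from -22.8 to -2.19 for the proximal share and from -17.1 to 3.99 for the share joined by inversion. Log2 fold changes ranged from -2.86 to 2.34 for Igkv5-39, from -0.86 to 1.39 for Igkv15-103, from -1.40 to 4.72 for Igkv14-126, from -1.78 to 3.61 for Igkv6-23, from -0.79 to 2.73 for Igkv12-44, from -2.43 to 1.50 for Igkv8-19, from -3.73 to 4.35 for Igkv14-130 and from -0.84 to 1.08 for Igkv2-109. Relative to the Igkv total Igkv15-103 was at -0.64 and Igkv12-44 at -0.11, and with the replicate block Igkv2-109 was at 0.035. Of the alternatives for totals, shares and counts of calls, 73 kept the direction or the count, 5 reversed direction and 5 gave more calls. No threshold was set for totals and shares. For the named segments, 165 kept direction and side of the threshold and 15 reversed direction. The other 27 kept direction and passed the threshold, some of them by unadjusted p. Repairs that leave out segments with an unsettled value, or take their lowest or highest reading, were added after seeing the data. The repair that ties the libraries for segments as for other genes was not planned either. The cause of these changes was not tested. The read totals of WT 2 limit what can be said of segments under 0.0159%.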
